A study of Homo sapiens with 18 samples.

Results

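The genes described here encode the nuclear parts of respiratory complexes II, III, IV and V: succinate dehydrogenase, the cytochrome bc1 complex, cytochrome c oxidase and ATP synthase, with their assembly factors and regulators. They were chosen by gene name, with earlier results of these data known. The rule took symbols that begin with SDHAF, UQCR, UQCC, COX, COA or ATP5, plus SDHA to SDHD and CYC1, with pseudogenes left out. This gave 68 of the 15747 genes measured in cytoplasmic and polysomal RNA, of which 66 are protein-coding and 2, COA6-AS1 and COX10-AS1, are antisense RNAs. The protein-coding genes comprise 41 subunits and 25 assembly factors or regulators. All 68 also had a row among the 44682 genes of the whole-cell table, 65 of them under the same symbol.

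RNA came from DU145, a cell line grown from a metastatic prostate carcinoma. Cells received 40 µM GC7 or vehicle for 24 h, and GC7 inhibits DHPS (deoxyhypusine synthase), which starts the modification of the translation factor eIF5A with hypusine. The groups were GC7 and vehicle whole-cell RNA, GC7 and vehicle cytoplasmic RNA, and GC7 and vehicle heavy polysomal RNA, 6 groups of 3 libraries and 18 libraries in all. Every fraction received emetine before hypotonic lysis, and nuclei and then mitochondria were pelleted before the gradients, so GC7 and vehicle fractions share these steps. The deposited values are comparison tables with no value per library, so library depth is unknown and no SD is given. Whether replicates were separate cultures is not stated in the labels, so p-values reflect the spread between libraries only, which may be technical. Neither table states its numerator: each direction here takes the authors' class "UP" to mean more RNA with GC7, and whole-cell values are given with their deposited sign turned, so that all directions would flip on the opposite reading. Values are relative to the RNA of a library, so fewer cells and less RNA per cell cannot be told apart. The epithelial keratins KRT8 and KRT18 had mean normalized counts of 18621 and 26823 in polysomal RNA in the authors' deposited table, and EPCAM and CDH1 had 820 and 268. The prostate marker KLK3 and the leukocyte marker PTPRC stood at the value shared by whole-cell rows without reads.

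Complex II oxidises succinate and passes electrons to ubiquinone, complex III passes them on to cytochrome c, and complex IV passes them to oxygen. Complexes III and IV pump protons, and complex V lets protons back through its rotating c ring to make ATP in its F1 head. Complex II is wholly nuclear-encoded, whereas complexes III, IV and V join nuclear subunits, translated in the cytosol and imported, with a few core subunits encoded in mitochondrial DNA. Assembly factors insert haem, copper, flavin and iron-sulfur cofactors or hold early subunits, and are not part of the finished enzyme.

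These genes were abundant in both fractions. By the authors' deposited table, the 68 genes held 1.49% of summed mean normalized counts in polysomal RNA and 1.44% in cytoplasmic RNA. Their median mean normalized count in polysomal RNA was 6285 in the authors' deposited table, against 572 over all genes. Per kilobase of the reference transcript, polysomal levels were 40272 for COX8A, 35916 for UQCRH and 34447 for ATP5MC2, computed from the authors' deposited table, against 86.5 for the assembly factor COX18 and 38.0 for COX6B2. COX6B2, the testis form of a complex IV subunit, was therefore far below its paralog COX6B1, at 23060 per kilobase. Each level is a mean over GC7 and vehicle libraries together.

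The first comparison asked which of these mRNAs changed on heavy polysomes with GC7. Most subunit mRNAs had negative values, and small subunits of ATP synthase and cytochrome c oxidase made up most of those that fell. The genes that rose were UQCRC1, a core protein of complex III, and COX15, an assembly factor of complex IV. Called by the adjusted p of the authors' deposited table (below 0.05), 12 of the 68 genes fell and 2 rose. Over all genes 5.48% fell and 5.61% rose, 11.1% in all. With no adjustment, at a p below 0.05, 24 were lower and 6 higher, against 12.1% and 11.2% of all genes and 23.3% in all. The 12 were 10 subunits and 2 assembly factors, with 6 genes in complex V, 5 in complex IV and 1 in complex III. Their log2 fold changes lay between -0.80 and -0.37 in the authors' deposited table, so none passed the size of 1 that the authors' classes use.

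The subunits and the assembly factors differed in these counts. Of the 41 subunits, 10 fell, 1 rose and 36 had negative values, and the median log2 fold change from the authors' deposited table was -0.19. Among the 25 assembly factors and regulators, 2 fell, 1 rose and 19 had negative values, and the median from the authors' deposited table was -0.10. The median over all 15747 genes was 0.00, and 51.5% of them were negative. By complex, the subunit medians in the authors' deposited table were -0.11 for complex II, -0.14 for III, -0.25 for IV and -0.20 for V. Negative values were found for 3 of 4, 7 of 9, 11 of 11 and 15 of 17 subunits of complexes II, III, IV and V in that order. The difference between subunits and assembly factors was not tested.

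**Figure D1:**
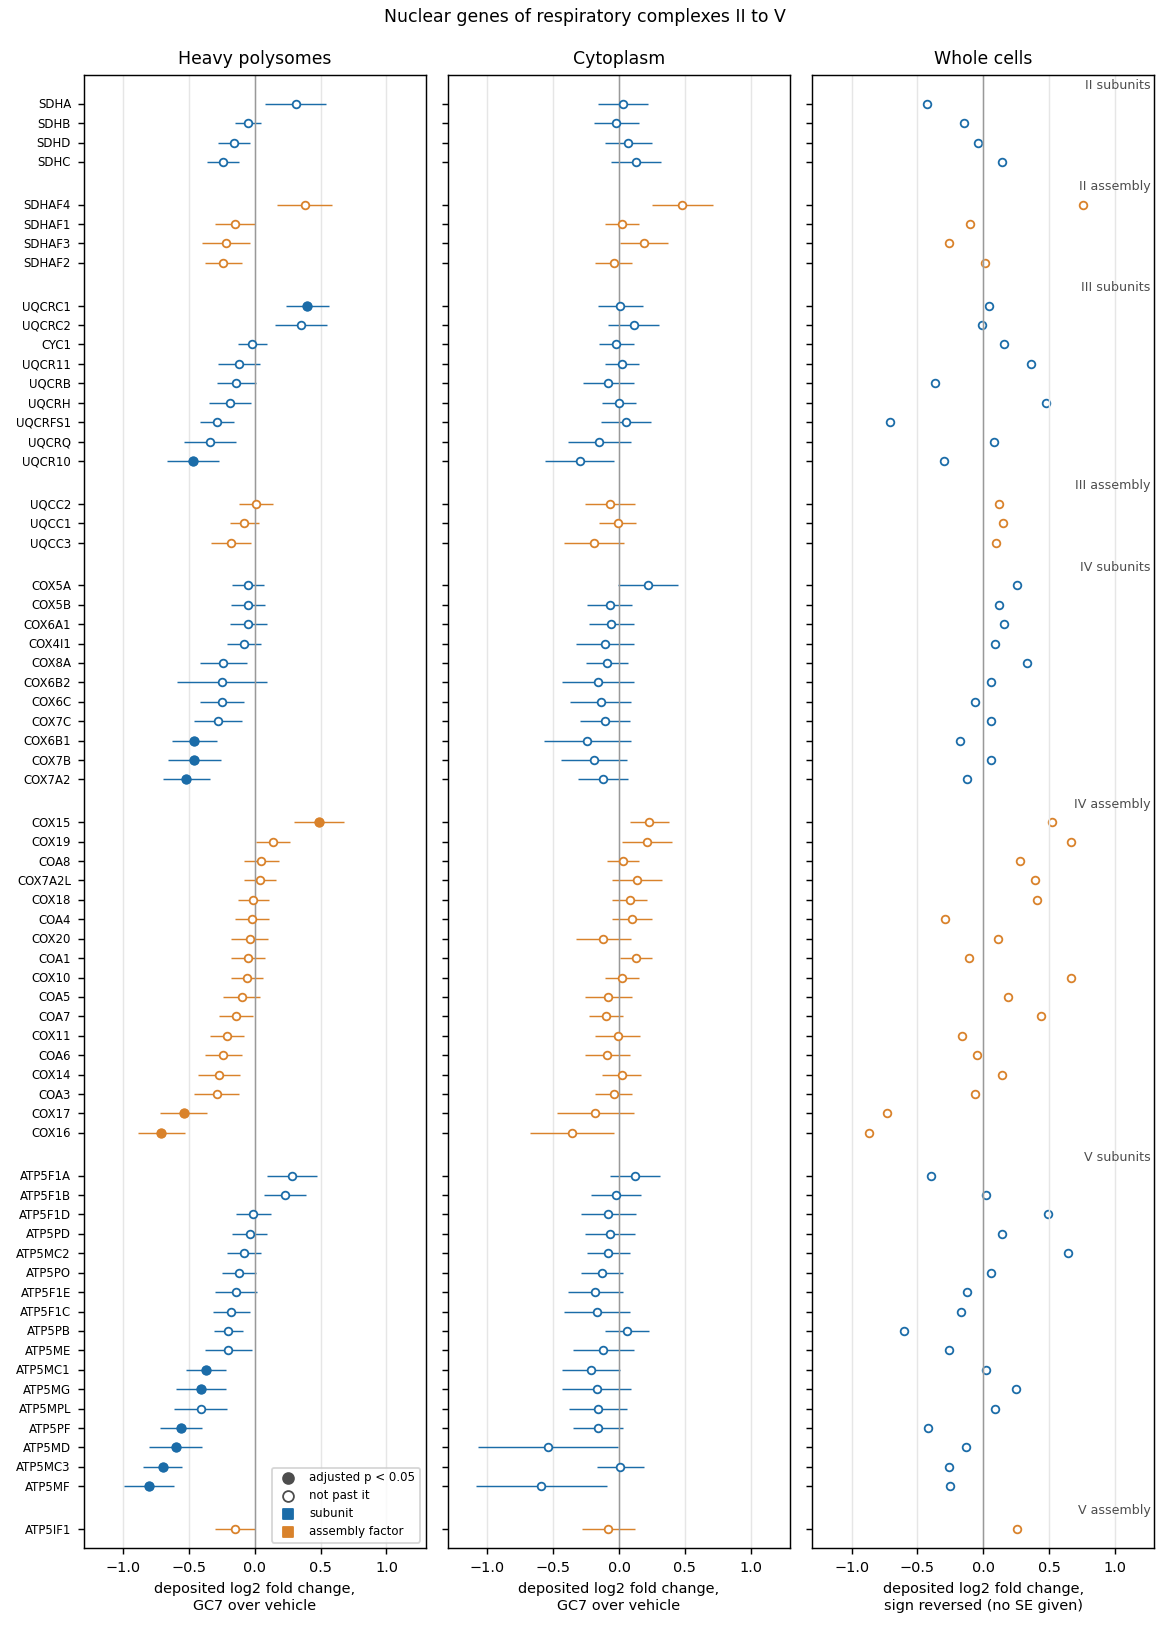
Deposited log2 fold changes of the 66 protein-coding genes with GC7 over vehicle in heavy polysomes, cytoplasm and whole cells (sign reversed), grouped by complex and role. Bars are the deposited SE (none is given for whole cells), filled points have an adjusted p under 0.05, and orange covers assembly factors and regulators. Filled points occur in the polysomal panel, 12 on the left and 2 on the right of 0.

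In ATP synthase, 3 of 5 small membrane subunits around the base of the enzyme fell, as did 2 of 3 c-ring genes and 1 of 4 peripheral stalk subunits. ATP5MF, subunit f (chr7:99448475-99466186, GRCh38, minus strand), had a polysomal log2 fold change of -0.80 ± 0.19 (SE) by the authors' deposited table, and an adjusted p of 0.000133. ATP5MD, the dimer-associated subunit now named ATP5MK, stood at -0.60 ± 0.20 (SE; adjusted p = 0.00544) by the authors' deposited table. Subunit g, ATP5MG, stood at -0.41 ± 0.19 (SE; adjusted p = 0.0374) by the authors' deposited table. The other small subunits, ATP5MPL and ATP5ME, had -0.41 and -0.20 with adjusted p-values of 0.0535 and 0.319 in the authors' deposited table. In the peripheral stalk, which holds the head still against the turning rotor, ATP5PF (coupling factor F6) fell, at -0.56 ± 0.16 (SE; adjusted p = 0.00174) by the authors' deposited table. The other stalk subunits ATP5PB, ATP5PD and ATP5PO lay between -0.20 and -0.04 in the authors' deposited table and did not pass. The catalytic head had positive values that did not pass: ATP5F1A and ATP5F1B, the alpha and beta subunits, had 0.28 and 0.23 in the authors' deposited table, with adjusted p-values of 0.168 and 0.238. ATP5F1C, ATP5F1D and ATP5F1E, which form the central stalk, lay between -0.18 and -0.01 in the authors' deposited table. ATP5IF1, the inhibitor that blocks ATP hydrolysis, had -0.15 ± 0.15 (SE; adjusted p = 0.477) by the authors' deposited table.

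The c ring is encoded by 3 genes, ATP5MC1 (chr17:48892765-48895871, plus strand), ATP5MC2 (chr12:53632726-53677408, minus strand) and ATP5MC3 (chr2:175176258-175181710, minus strand; all GRCh38). Their proteins differ in the import sequence, while the last 75 codons, which encode the mature subunit, specify the same residue at 75 of 75 positions in every pair. These 225 bases of the GENCODE coding sequences are shown because the 3 mRNAs encode the same mature protein with different codons. Not all of these mRNAs passed on polysomes. Capitals mark the 52 bases at which a gene differs from at least 1 of the others:
ATP5MC1: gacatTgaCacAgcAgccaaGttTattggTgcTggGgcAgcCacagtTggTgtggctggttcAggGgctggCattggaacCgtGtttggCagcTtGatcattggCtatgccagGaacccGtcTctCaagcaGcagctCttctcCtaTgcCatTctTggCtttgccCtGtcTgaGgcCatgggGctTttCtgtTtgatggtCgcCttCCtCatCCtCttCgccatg
ATP5MC2: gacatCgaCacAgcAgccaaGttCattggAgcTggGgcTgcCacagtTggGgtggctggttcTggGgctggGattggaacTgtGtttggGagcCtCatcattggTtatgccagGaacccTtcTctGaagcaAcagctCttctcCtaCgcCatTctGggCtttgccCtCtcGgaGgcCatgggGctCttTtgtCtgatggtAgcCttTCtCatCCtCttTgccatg
ATP5MC3: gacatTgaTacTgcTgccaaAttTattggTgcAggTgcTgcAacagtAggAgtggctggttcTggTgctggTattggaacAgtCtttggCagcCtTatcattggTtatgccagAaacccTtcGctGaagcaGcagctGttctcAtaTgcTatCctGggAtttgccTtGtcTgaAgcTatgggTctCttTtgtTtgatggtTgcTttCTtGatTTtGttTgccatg
ATP5MC1 and ATP5MC2 were identical at 88.9% of these bases and used different codons at 24 positions. ATP5MC3 was identical to each of the others at 81.3% of bases and used different codons at 39 positions. ATP5MC3 had the smallest polysomal p of all 68 genes, with a log2 fold change of -0.70 ± 0.15 (SE; adjusted p = 1.40e-05) by the authors' deposited table. ATP5MC1 also fell, at -0.37 ± 0.15 (SE; adjusted p = 0.0302) by the authors' deposited table. ATP5MC2, the most abundant of the 3 per kilobase, stood at -0.08 ± 0.13 (SE; adjusted p = 0.705) by the authors' deposited table. The differences between these paralogs were not tested, and how reads that match several of them were assigned is not given in the sources used here. Many genes of this group also have processed pseudogenes, to which the same limit applies. COX16 and ATP5MF have readthrough transcripts with SYNJ2BP and PTCD1, and the antisense RNAs lie beside COA6 and COX10, so reads of these pairs may not be separable.

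Cytochrome c oxidase subunits were all negative on polysomes, and 3 of 11 fell. COX7A2, at -0.52 ± 0.18 (SE; adjusted p = 0.00955), COX6B1, at -0.46 ± 0.17 (SE; adjusted p = 0.0156), and COX7B, at -0.46 ± 0.20 (SE; adjusted p = 0.0299), passed in the authors' deposited table. These are small subunits around the catalytic core, and COX6B1 faces the intermembrane space. COX7C, COX6C, COX6B2 and COX8A lay between -0.28 and -0.24 in the authors' deposited table, with adjusted p-values between 0.154 and 0.237. COX4I1, COX5A, COX5B and COX6A1 lay between -0.08 and -0.05 in the authors' deposited table. COX6B2 rests on a mean normalized count of 59.6 in polysomal RNA and has the largest SE of the subunits on polysomes, 0.34 in the authors' deposited table.

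In the cytochrome bc1 complex 1 of 9 subunits rose and 1 fell. UQCRC1, a core protein that faces the matrix (chr3:48599002-48610976, GRCh38, minus strand), rose, at 0.40 ± 0.16 (SE; adjusted p = 0.0258) by the authors' deposited table. Its partner UQCRC2 stood at 0.35 ± 0.20 (SE; adjusted p = 0.101) by the authors' deposited table. UQCR10, a small membrane subunit, fell, at -0.47 ± 0.20 (SE; adjusted p = 0.0252) by the authors' deposited table. The small subunits UQCRQ, UQCRH, UQCRB and UQCR11 were negative without passing, between -0.34 and -0.12 in the authors' deposited table. The Rieske iron-sulfur protein UQCRFS1 had -0.29 ± 0.13 (SE; adjusted p = 0.0610) and cytochrome c1, CYC1, had -0.02 ± 0.11 (SE; adjusted p = 0.928) by the authors' deposited table.

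No gene of succinate dehydrogenase passed on polysomes. SDHA, the flavoprotein, had 0.31 ± 0.23 (SE; adjusted p = 0.172) by the authors' deposited table. SDHB, the iron-sulfur protein, had -0.05, and the membrane anchors SDHC and SDHD had -0.24 and -0.16 in the authors' deposited table. Among its assembly factors, SDHAF4, which binds the flavoprotein before it joins SDHB, stood at 0.38 ± 0.21 (SE; adjusted p = 0.0822) by the authors' deposited table. SDHAF1 and SDHAF3, which serve iron-sulfur insertion into SDHB, and SDHAF2, which serves the flavinylation of SDHA, lay between -0.24 and -0.15 in the authors' deposited table.

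Assembly factors of cytochrome c oxidase included the strongest changes outside the subunits, in both directions. COX16, which acts in the maturation of the COX2 subunit (chr14:70325081-70416984, GRCh38, minus strand), fell, at -0.71 ± 0.18 (SE; adjusted p = 0.000309) by the authors' deposited table. COX17, the copper chaperone of the intermembrane space, fell, at -0.54 ± 0.18 (SE; adjusted p = 0.00698) by the authors' deposited table. COX15, which makes the haem A of complex IV (chr10:99710868-99732127, GRCh38, minus strand), rose, at 0.49 ± 0.19 (SE; adjusted p = 0.0163) by the authors' deposited table. COX10, which acts in the step before it, had -0.06 ± 0.12 (SE; adjusted p = 0.794) by the authors' deposited table. The copper factors COX11, COX19 and COA6 had -0.21, 0.14 and -0.24 in the authors' deposited table and did not pass. COX14, COA3 and COA1, which act with newly made COX1, lay between -0.29 and -0.05 in the authors' deposited table, and COX18 and COX20, which handle COX2, had -0.01 and -0.04. COX7A2L, the supercomplex factor related to COX7A2, had 0.04 ± 0.12 (SE; adjusted p = 0.879) by the authors' deposited table. COA4, COA5, COA7 and COA8 lay between -0.14 and 0.05 in the authors' deposited table. UQCC1, UQCC2 and UQCC3, which serve cytochrome b, lay between -0.18 and 0.01 in the authors' deposited table, and the antisense RNAs COA6-AS1 and COX10-AS1 had -0.06 and -0.05.

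A list of 22 further assembly factors of complexes III, IV and V, whose names fall outside the pattern, gave 3 lower and 2 higher genes on polysomes, and their median from the authors' deposited table was -0.06. The 3 lower genes were PET100, CMC1 and CMC2, which serve complex IV, at -0.56, -0.53 and -0.44 in the authors' deposited table. TTC19, which maintains complex III, and OXA1L, the insertase of the inner membrane, rose, at 0.38 (adjusted p = 0.0294) and 0.31 (adjusted p = 0.0410) by the authors' deposited table. Cytochrome c itself, CYCS, and the complex IV subunit NDUFA4 had -0.18 each in the authors' deposited table and did not pass. Of 10 regulators of nuclear respiratory genes, among them NRF1, GABPA and YY1, 9 were measured on polysomes and 0 passed in either fraction, and the polysomal median from the authors' deposited table was -0.01.

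The second comparison asked the same of cytoplasmic RNA, and no gene passed there. The count was 0 of 68 by the authors' deposited adjusted p, against 4.24% of all genes, 1.95% lower and 2.29% higher. Before adjustment, at a p below 0.05, 5 genes were lower and 2 higher, against 8.13% and 7.31% of all genes and 15.4% in all. The 5 lower were ATP5MF, ATP5MD, COX16, UQCR10 and COX6B1, each of which fell on polysomes. Cytoplasmic values were -0.59 ± 0.50 (SE) for ATP5MF and -0.54 ± 0.53 (SE) for ATP5MD in the authors' deposited table. The 2 higher were SDHAF4, at 0.48 ± 0.23 (SE) with the smallest adjusted p of the group, 0.0715, and COX15, at 0.23 ± 0.15 (SE; adjusted p = 0.289), values from the authors' deposited table. Of the 12 genes that fell on polysomes, 11 were negative in cytoplasm, and ATP5MC3 was the exception, at 0.01 ± 0.18 (SE; adjusted p = 0.968) by the authors' deposited table. Over all genes 51.3% were negative in cytoplasm, and the unshrunken changes of the 2 fractions correlated with r of 0.58. The share among all genes that fell on polysomes is not given here.

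The deposited fold changes are shrunken towards 0, more so where the error is large. With the shrinkage undone, the median log2 fold change of the 41 subunits was -0.25 on polysomes and -0.30 in cytoplasm. For the 25 assembly factors and regulators the unshrunken medians were -0.16 on polysomes and -0.02 in cytoplasm. The median unshrunken SE of the 68 genes was 0.17 on polysomes and 0.28 in cytoplasm, and it was larger in cytoplasm for 63 of 68. From the authors' deposited table the shrunken subunit medians were -0.19 on polysomes and -0.08 in cytoplasm. The part of these errors in the number of calls was not tested.

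**Figure D2:**
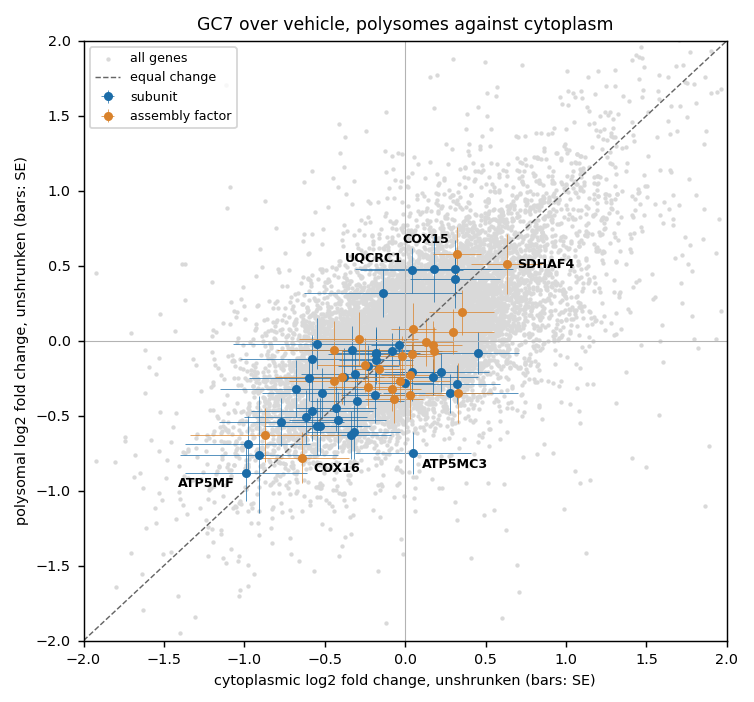
Unshrunken log2 fold change with GC7 over vehicle on polysomes (vertical) against cytoplasm (horizontal), both axes limited to 2 in size, for the 66 protein-coding genes (blue subunits, orange assembly factors and regulators, bars are SE) and all genes in grey. Points scatter around the dashed line of equal change. ATP5MF is low on both axes, at -0.88 and -0.99, and ATP5MC3 is low on polysomes but not in cytoplasm, at -0.75 and 0.05. SDHC, SDHAF3 and UQCRFS1 are also negative on polysomes and positive in cytoplasm, and no difference between the fractions passed adjustment.

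The third comparison set polysomal against cytoplasmic change gene by gene, which describes the change in heavy polysomes relative to cytoplasm. Lighter polysomes were not among the groups sequenced, so the difference is not a full measure of translational efficiency. No gene passed: the count was 0 of 68 after Benjamini-Hochberg adjustment of a normal test, and 0 of all 15745 genes tested. This test and the intervals below took the errors of the fractions as independent. With an error correlation of 0.5, 25 of all genes passed and 0 of the 68. At an unadjusted p under 0.05 there were 3 genes, all negative, against 1.06% of all genes that were negative and 2.15% in either direction. ATP5MC3 had a difference of -0.80 with a 95% interval of -1.56 to -0.05, SDHC had -0.61 with -1.19 to -0.04, and SDHAF3 had -0.68 with -1.24 to -0.12. The median difference was 0.09 for the subunits, -0.13 for the assembly factors and regulators and 0.01 for all genes, and 34 of 68 genes were negative. With the deposited shrunken values the subunit median turned to -0.11, against -0.10 for the assembly factors and regulators. For genes that fell in polysomes the intervals were wide, from -0.72 to 0.94 for ATP5MF around a difference of 0.11 and from -0.80 to 0.51 for COX16 around -0.14. UQCRC1 had a difference of 0.44 with an interval of -0.25 to 1.13, and COX15 had 0.27 with -0.19 to 0.73. Across the 68 genes the unshrunken polysomal and cytoplasmic changes correlated with Pearson's r of 0.64 and Spearman's rho of 0.58, a description across genes that share the same libraries. Over all genes r was 0.58.

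**Figure D3:**
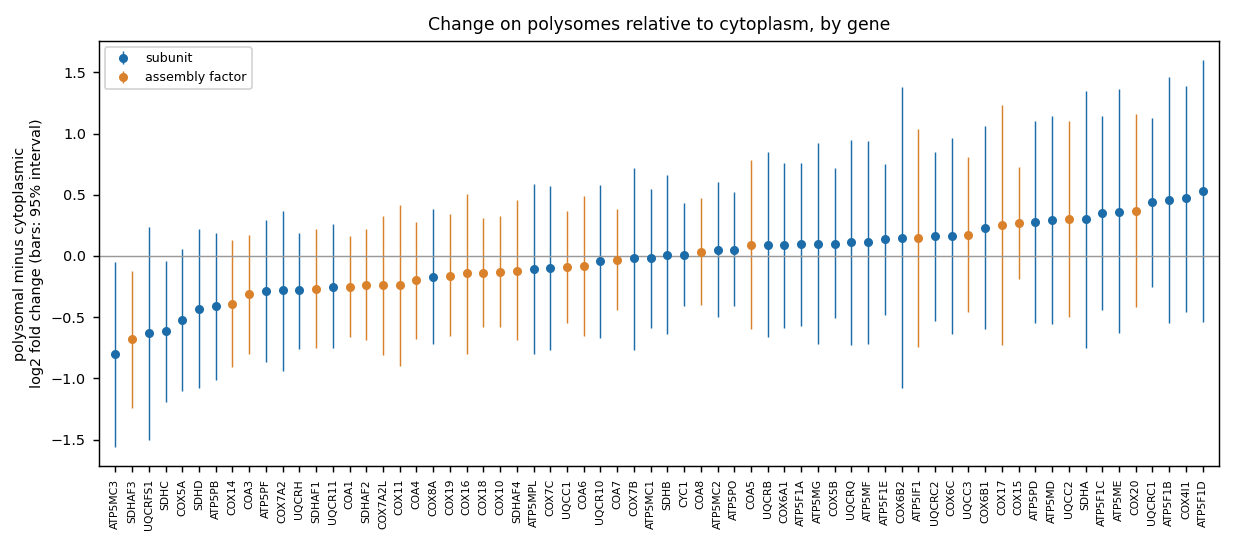
Polysomal minus cytoplasmic log2 fold change (unshrunken) for the 66 protein-coding genes in order of size, blue for subunits and orange for assembly factors and regulators. Bars are 95% intervals with errors taken as independent. The interval lies below 0 for ATP5MC3, SDHAF3 and SDHC and spans 0 for the others.

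Whole-cell RNA showed no change of this group that passed. The deposited p-values were adjusted with the Benjamini-Hochberg method over 44682 genes. By this adjustment 0 of 68 passed, as did 0% of all genes, and 0.953 was the smallest adjusted p. Before adjustment 1 gene had a p below 0.05, COX16, at -0.87 (p = 0.0391) by the authors' deposited table, against 2.99% of all rows and 5.01% of rows with reads. Values ranged up to 0.76 for SDHAF4 (unadjusted p = 0.0883) by the authors' deposited table. Their median was 0.06, with 29 of 68 negative, against -0.03 over the 13981 genes shared with the fractions. Subunits had a median of 0.02 and assembly factors and regulators one of 0.12. The 12 genes that fell on polysomes included 9 with negative whole-cell values, among them COX17 at -0.73 (unadjusted p = 0.0999) and ATP5PF at -0.42 (unadjusted p = 0.232) by the authors' deposited table. The whole-cell sign was itself turned because the deposited values ran against the polysomal ones, so a shared direction is no separate support. UQCRFS1 stood at -0.71 (unadjusted p = 0.148) and SDHA at -0.43 (unadjusted p = 0.439) by the authors' deposited table. COX8A, at 0.33 (unadjusted p = 0.556), UQCC1, at 0.15 (unadjusted p = 0.735), and ATP5IF1, at 0.26 (unadjusted p = 0.640), had the smallest whole-cell p of complex IV subunits, complex III factors and complex V regulators in the authors' deposited table. The c-ring genes ATP5MC1, ATP5MC2 and ATP5MC3 had 0.02, 0.64 and -0.26 in the authors' deposited table. Whole-cell values carry no SE and are not shrunken in the same way, so their size is not compared with that of the fractions.

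The genes that changed on polysomes differed in coding length. The 12 that fell have coding sequences of 174 to 426 bases, while the 2 that rose have 1230 bases in COX15 and 1440 in UQCRC1. Of the 9 genes of the group over 900 bases, 3 were negative on polysomes, namely COX10, CYC1 and COX18, against 4511 of 9490 protein-coding genes of that length. Log2 coding length and unshrunken polysomal change correlated across the 66 protein-coding genes with r of 0.63 and rho of 0.60, and for the cytoplasmic change r was 0.46 and rho 0.48. For polysomal minus cytoplasmic change r was 0.12 and rho 0.08. Over 12975 protein-coding genes, r for the polysomal change was 0.12 and rho 0.16. These are descriptions across genes of the same libraries.

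Short genes in general also stood lower on polysomes. Up to 300 bases, 7 of 22 genes of the group fell (31.8%), against 23.3% of 288 protein-coding genes of that length. Between 300 and 450 bases, 5 of 19 fell (26.3%), against 17.0% of 606. From 450 to 900 bases 0 of 16 fell, against 9.42% of 2591. Over 900 bases 0 of 9 fell and 2 rose, against 3.73% and 6.08% of 9490. The unshrunken polysomal medians in these 4 length ranges were -0.38, -0.22, -0.20 and 0.41 for the group, against -0.28, -0.22, -0.10 and 0.02 for all protein-coding genes. Subunits and assembly factors had similar median coding lengths, 387 and 354 bases, against 1398 over all protein-coding genes. The part of coding length in the polysomal change was not tested.

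**Figure D4:**
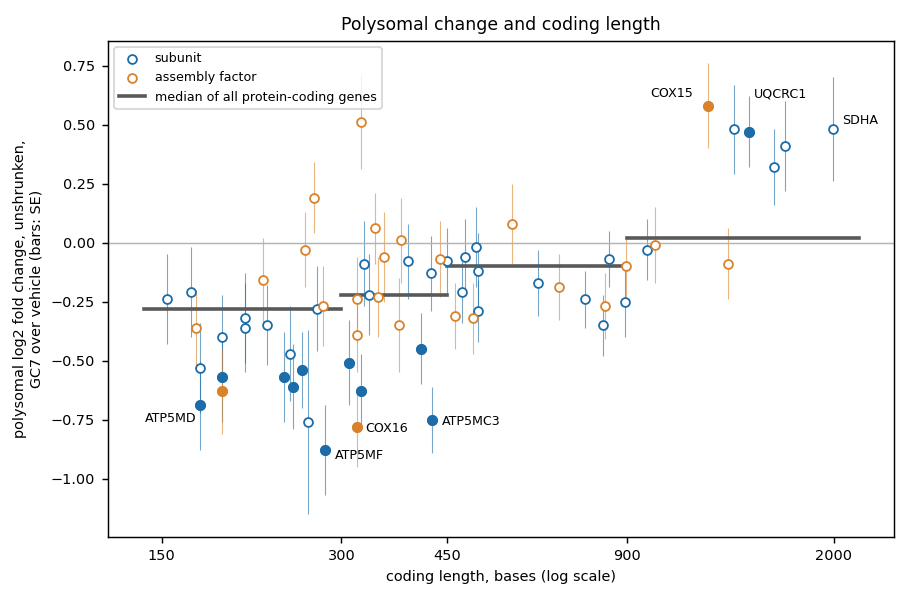
Unshrunken polysomal log2 fold change with GC7 over vehicle against coding length (log scale) for the 66 protein-coding genes, blue for subunits and orange for assembly factors and regulators, filled where the adjusted p is under 0.05, with SE bars. Grey lines are medians of all protein-coding genes in 4 length ranges, at -0.28, -0.22, -0.10 and 0.02, and the filled points below 0 lie under 450 bases.

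Runs of proline codons, at which hypusinated eIF5A is known to relieve stalled ribosomes, were rare in this group. At least 3 proline codons in a row occurred in 1 of 66 coding sequences (1.52%), that of COX10, against 3403 of 12975 protein-coding genes (26.2%). The median coding length was 364 bases in this group and 1398 over all protein-coding genes, and shares at like length were not compared.

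Nuclear respiratory genes are known targets of NRF1, GABPA and YY1, and their motifs were searched on both strands of 300 bases, 250 before and 50 after the start sites in RefSeq (GRCh38.p14). A promoter was matched for 56 of the 66 genes, with a single listed start site per gene. GCGCNTGCG, for NRF1, was found in 20 of them (35.7%), against 14.8% of measured protein-coding genes and 8.05% of all promoters. CCGGAAGT, for GABPA, was found in 15 (26.8%), against 8.76% and 4.44%. AAGATGGCG, for YY1, was found in 5 (8.93%), against 3.92% and 1.85%. The 100 bases before the start of COX15 (chr10:99732128-99732227, minus strand) are shown as an example from a gene that rose, with the NRF1 motif on the reverse strand and the GABPA motif in capitals:
COX15: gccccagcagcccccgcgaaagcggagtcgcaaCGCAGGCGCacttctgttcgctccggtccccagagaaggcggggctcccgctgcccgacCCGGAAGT
The same pair of motifs occurred in the 300 bases of COX17, which fell, so genes of both directions held them. UQCRC1 and ATP5PF held the NRF1 and YY1 motifs, UQCR10 held that for NRF1 and ATP5MD that for GABPA. None of these motifs was found in the stretch searched for ATP5MC1, ATP5MG, COX16, COX6B1, COX7A2 and COX7B, which fell. Other start sites of these genes were not searched, and the start used for COX16 lies inside the gene span given above. No promoter was matched for ATP5MC3 and ATP5MF. A match is a description and not a site of binding.

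The mitochondrially encoded partners of these subunits stood far lower than the nuclear genes. MT-CYB of complex III, MT-CO1, MT-CO2 and MT-CO3 of complex IV, and MT-ATP6 and MT-ATP8 of complex V fell in polysomal and in cytoplasmic RNA, 6 of 6 in each. Their median log2 fold changes were -4.52 on polysomes, -3.85 in cytoplasm and -1.90 in whole cells in the authors' deposited table. For the nuclear genes the medians were -0.14, -0.07 and 0.06 in the same order. Mitochondria were pelleted before the gradients, so mitochondrial mRNA in the fractions is what this step left behind. Its part in the fraction values was not tested.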

How the data were processed

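Per the labels, DU145 RNA from 3 GC7 and 3 vehicle libraries was sequenced in each of whole cells, cytoplasm and heavy polysomes. The submitters' processing notes list STAR (2.7.8a), GRCh38 as the build and Salmon (1.4.0), and what each served for is not given in the sources used here. The files are the authors' comparison tables, and 0 columns of per-library values were used, so depth is unknown and no count model was fitted.

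For whole cells the authors deposited a log2 fold change and a p-value without adjustment. The base was read from the values, since the most frequent step from the value of the 18022 rows without reads was 0.5280 and log2(3)/3 is 0.5283. Its sign was reversed because, as deposited, it correlated at -0.377 with the polysomal values and -0.353 with the cytoplasmic values over 13981 genes. For the fractions, per the file headers, the authors give log2 fold changes with SE (a score with no fixed range), p-values, adjusted p-values and a mean count they normalized. The sign matched the class, UP with a positive value, for 380 of 380 values counted over both fractions. These values had an adjusted p under 0.05 and a log2 change over 1 in size.

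The deposited fraction fold changes are shrunken, as their ratio to the SE does not return the p-value. A Cauchy prior was fitted (scale 0.203 for polysomes and 0.197 for cytoplasm) and undone. For 99.8% of polysomal and 99.7% of cytoplasmic values the z then matched the deposited p-value to within 0.1, and the difference omits 2 genes. Polysomal minus cytoplasmic change was tested with a two-sided normal test on unshrunken values, with errors taken as independent, and Benjamini-Hochberg adjustment over 15745 genes. Whole-cell p-values were adjusted over 44682 genes. The steps were tested on simulated data. The planned count tests could not be run.

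Members were assigned to complexes and roles by hand. ATP5IF1 and COX7A2L were counted with the assembly factors, and ATP5MD, ATP5MPL and COX10-AS1 were matched to their newer whole-cell names ATP5MK, ATP5MJ and COX10-DT. Coding lengths, codons and coordinates come from the canonical transcripts of GENCODE (GRCh38), and levels per kilobase use the length of that transcript. Named were genes that passed, those with the smallest polysomal or whole-cell p of each complex and role, and paralogs, with the other genes given to account for each member. Members, lists and named genes were chosen with earlier results of these data known. Alternatives were thresholds, genes tested, shrinkage, centring, low values and error correlation. Scripts used Python 3.11.15, numpy 2.4.6, scipy 1.17.1, pandas 2.3.3 and matplotlib 3.10.9.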

Additional observations from a re-analysis of the deposited data

How the results depend on the processing

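On polysomes, 7 genes were lower and 0 higher at an adjusted p under 0.01, against 12 and 2 at 0.05, and 0 were lower and 0 higher when the log2 change also had to exceed 1 in size. In cytoplasm, 1 gene was higher at an adjusted p under 0.1. In whole cells, 1 gene was lower at an unadjusted p under 0.05, and 2 were lower and 1 higher at an unadjusted p under 0.1. With the shrinkage undone, the cytoplasmic subunit median was -0.30, against -0.08 as deposited. The thresholds and the shrinkage themselves set these differences. The shares of all genes at an adjusted p under 0.01 or 0.1, or at an unadjusted p under 0.1, are not given here. Counts at those thresholds therefore cannot be set against all genes.

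With an error correlation of 0.5 between the fractions, 25 of all genes passed in polysomal minus cytoplasmic change and 0 of the 68. Of the 68, 6 had an unadjusted p under 0.05 and the smallest adjusted p was 0.156. The share of all genes at that unadjusted p is not given for this setting, so the 6 cannot be set against it. Of the alternative values, 29 of 30 medians moved by less than their error or spread and 32 of 40 counts stayed within 1.5 times. Most of the counts that stayed were 0 in both settings, and the polysomal counts moved with the threshold as given above. All 28 of 28 values of single genes kept their direction and call. Undoing the shrinkage cannot change a sign and kept the deposited adjusted p, and the other setting repeated the adjustment. The single-gene values therefore could not test direction.

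No paired analysis was possible because the tables hold no value per library. For the same reason leaving out replicates, another normalization of counts and a count filter before fitting were not run. Over genes with a mean normalized count of at least 100, with the p-values adjusted again, 13 genes of the group were lower and 2 higher on polysomes and 0 passed in cytoplasm. The share of all genes that passed after this filter is not given here, so these counts cannot be set against it. Depth is unknown, so no limit of detection can be given.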

Other observations

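The whole-cell table held further symbols of the same families that were not analysed in the fractions. COX4I2, the lung-enriched paralog of COX4I1, stood at -0.85 (unadjusted p = 0.163) by the authors' deposited table, again with the sign turned, against 0.09 for COX4I1. UQCRHL, an intronless copy of the hinge subunit UQCRH, stood at 0.47 (unadjusted p = 0.512), close to 0.48 for UQCRH in the authors' deposited table, and reads of this pair may not be separable. The readthrough ATP5MF-PTCD1 stood at 0.86 (unadjusted p = 0.367) by the authors' deposited table, while ATP5MF itself stood at -0.25. COX6A2 and COX7A1, the muscle forms of 2 complex IV subunits, and COX7B2 and COX8C stood at the value shared by rows without reads.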
